A study of Rattus norvegicus with 4 samples.

Results

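The genes that encode the protein chains of hemoglobin were examined in RNA-seq data from the frontal cortex of newborn rats. Members were the genes with an NCBI Gene ID whose symbol names a hemoglobin chain of the alpha, beta, epsilon, gamma, theta or zeta kind, together with Alas2 and Slc4a1 as red-cell controls. This gave 9 hemoglobin chain genes and 2 controls, 11 of the 14008 known genes (those with a Gene ID) listed in any library. Pregnant rats were of the strain Wistar per the labels and Wistar Furth per the study's methods. They had received vehicle or bisphenol A (BPA), a component of polycarbonate plastic and epoxy resins, at 5000 µg/kg of maternal body weight daily. Dosing ran from gestation day 1 until birth. Pups were sampled at postnatal day 1 per the labels and at postnatal day 1 or 2 per the study's methods. There was 1 library for each sex and treatment. Values listed without library names run in the order control male, BPA male, control female, then BPA female. Hbbl1 and its neighbours became of interest because of their BPA to control ratios in these same libraries, so those ratios are given as a description with no test. Each ratio compares 1 library with 1, has no replicate check and speaks of those libraries, not of the treatment.

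Hemoglobin is the oxygen carrier of red blood cells, built from alpha-type and beta-type globin chains that each hold a heme group. The chains are encoded in separate alpha and beta gene clusters, in which embryonic genes are expressed early and adult genes later, under erythroid factors such as GATA1 and KLF1. In brain tissue globin mRNA can come from immature red cells in the vessels, and low expression has also been described in some neurons and glia. In such bulk tissue fewer cells of a type and less RNA per cell cannot be told apart.

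The beta-type genes analyzed were Hbb, Hbb-b1, Hbb-bs, Hbbl1, Hbg1 and Hbe1. In the RefSeq gene table they lie on chromosome 1 in the order Hbb-bs, Hbb-b1, Hbbl1, Hbb, Hbg1, Hbe1, with Hbb-b2 between Hbbl1 and Hbb and Hbe2 before Hbe1; Hbb-b2 and Hbe2 are not analysed here. The alpha-type genes, on chromosome 10, were Hba1, Hba2 and Hba-a1 as named in the files, which RefSeq now calls Hba-a1, Hba-a2 and Hba-a3. The files give Hbb-bs and Hbbl1 placeholder symbols, so their names were taken from RefSeq through the Gene IDs 689064 and 100134871. Both carry the same protein description, hemoglobin subunit beta-2, and an assembled transcript of 720 bases without a Gene ID carries it as well.

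The promoters of the 4 expressed beta-type genes are shown because they and the first transcribed bases show how alike Hbb-b1, Hbb-bs and Hbbl1 are. Each line gives the 130 bases just before the annotated start, 5′ to 3′ on the strand of the gene, from RefSeq on the GRCr8 build, a later assembly than the one the reads were mapped to. Capitals mark matches, on either strand, to the CACCC box, to the CCAAT box, to the TATA box as TATAAA or with a first C as CATAAA, or to the GATA motif as AGATAA or with a first T as TGATAA.
Hbb, chr1:167663722-167663851, minus strand: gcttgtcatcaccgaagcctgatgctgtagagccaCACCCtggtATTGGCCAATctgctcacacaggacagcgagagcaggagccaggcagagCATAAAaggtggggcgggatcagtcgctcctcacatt
Hbb-b1, chr1:167643521-167643650, minus strand: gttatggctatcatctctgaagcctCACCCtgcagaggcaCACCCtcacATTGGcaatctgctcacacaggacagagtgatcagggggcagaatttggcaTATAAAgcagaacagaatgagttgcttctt
Hbb-bs, chr1:167631631-167631760, minus strand: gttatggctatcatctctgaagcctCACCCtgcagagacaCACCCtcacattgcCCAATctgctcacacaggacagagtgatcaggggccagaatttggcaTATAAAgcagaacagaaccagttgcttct
Hbbl1, chr1:167650236-167650365, minus strand: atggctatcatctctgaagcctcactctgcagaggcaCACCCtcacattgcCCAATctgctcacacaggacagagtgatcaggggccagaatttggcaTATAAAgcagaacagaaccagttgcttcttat
Over the 250 bases before the start, Hbbl1 matched Hbb-b1 at 242 of 247 aligned bases (98.0%) and Hbb-bs at 236 of 247 (95.5%), while it matched Hbb at 160 of 222 (72.1%). In the first transcribed bases, Hbbl1 was identical to Hbb-b1 at all 48 and to Hbb-bs at all 47 aligned bases, and differed from Hbb at 6 of 47. TATAAA stood near the start of Hbb-b1, Hbb-bs and Hbbl1, and CATAAA in its place in Hbb. CCAAT occurred in all 4 windows of 250 bases, in Hbb-b1 only on the opposite strand. CACCC occurred 3 times each in the windows of Hbb-b1 and Hbb-bs, 2 times in that of Hbbl1 and 1 time in that of Hbb. Of 33469 RefSeq promoters of rat, 49.2% hold CACCC, 34.0% CCAAT, 12.9% TATAAA and 11.4% CATAAA in a window of that length. The GATA motifs AGATAA (10.3% of promoters) and TGATAA (7.97%) had no match in these 4 windows. Forms of the GATA motif that end in G were not searched or marked. The stretch ctatca, which is TGATAG on the opposite strand, stands in the lines of Hbb-b1, Hbb-bs and Hbbl1. The windows can therefore not be called free of GATA motifs. RefSeq promoters were at hand for 9 of the 11 members.

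Values are FPKM (fragments mapped to a transcript, scaled to its length and to library depth), with 2 decimals and with 0.01 in place of 0, so levels can be compared between genes per length. The depth recovered from the steps of scarce transcripts lay between 8945000 and 9250750 fragments per library. From it the fragments behind each value were estimated, and the 95% intervals below cover counting error only. The log2 ratio is log2(BPA + 0.5) minus log2(control + 0.5) of FPKM, which understates changes of genes near or below 0.5 FPKM, and a gene is called past the fold at an absolute log2 ratio of at least 1.

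Hbbl1, a beta-type gene, was at 18.03 FPKM in the control male, 82.29 in the BPA male, 21.51 in the control female and 33.11 in the BPA female library. Both BPA libraries were higher than both control libraries, and the BPA male library stood far above the other 3. The ratio was 4.56-fold in the male pair (log2 2.16, interval 1.87 to 2.53) and 1.54-fold in the female pair (log2 0.61, interval 0.26 to 0.98). These values rest on an estimated 94, 426, 109 and 168 fragments in the same order. In the order of the levels, the 2 control libraries were neighbours whose counting intervals overlapped, 14.6 to 22.0 FPKM in the control male and 17.7 to 26.1 FPKM in the control female library. Among all known genes of its library, Hbbl1 ranked 4298 in the control male and 898 in the BPA male, and 3735 in the control female and 2406 in the BPA female library.

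Hbb-b1, annotated as the adult major beta chain, was at 84.61 FPKM in the control male, 39.62 in the BPA male, 65.38 in the control female and 47.46 in the BPA female library. Both BPA libraries were below both controls, by 2.14-fold in the male pair (log2 -1.09, interval -1.33 to -0.86) and by 1.38-fold in the female pair (log2 -0.46, interval -0.70 to -0.22). Hbb-bs, the other gene annotated as hemoglobin subunit beta-2, was at 56.45, 28.16, 48.74 and 27.48 FPKM in the same order. It lay lower in both BPA libraries as well, and the log2 ratios were -0.99 (interval -1.30 to -0.72) in the male pair, just short of the fold limit and past it at -1.02 once FPKM were rescaled to equal totals, and -0.82 (interval -1.13 to -0.52) in the female pair.

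Hbbl1 and its 2 close relatives thus differed in opposite directions between BPA and control libraries, and their sum differed by far less than any of the 3 did in the male pair. Hbb-b1, Hbb-bs and Hbbl1 together came to 159.09 FPKM in the control male, 150.07 in the BPA male, 135.63 in the control female and 108.05 in the BPA female library. The difference of the sum from its control was -5.67% in the male and -20.3% in the female pair. The sum's log2 ratio was -0.08 in males (-0.12 in estimated fragments, interval -0.26 to 0.02) and -0.33 in females (-0.34 in fragments, interval -0.50 to -0.17). Hbbl1 made up 11.3% of the summed FPKM in the control male, 54.8% in the BPA male, 15.9% in the control female and 30.6% in the BPA female library. In estimated fragments its share was 10.8% (exact binomial 95% interval 8.84 to 13.1), 53.6% (50.0 to 57.1), 15.3% (12.7 to 18.1) and 29.6% (25.9 to 33.5). The 4 intervals overlapped only between the 2 control libraries. Hbb-b1 and Hbb-bs without Hbbl1 summed to 141.06, 67.78, 114.12 and 74.94 FPKM, a log2 ratio of -1.05 in males and -0.60 in females. Their first transcribed bases were identical where aligned and the rest of the transcripts was not compared here, so reads may have been divided among these genes when the authors estimated expression, and the level of each gene is uncertain. Whether the division differed between libraries was not tested.

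**Figure D1:**
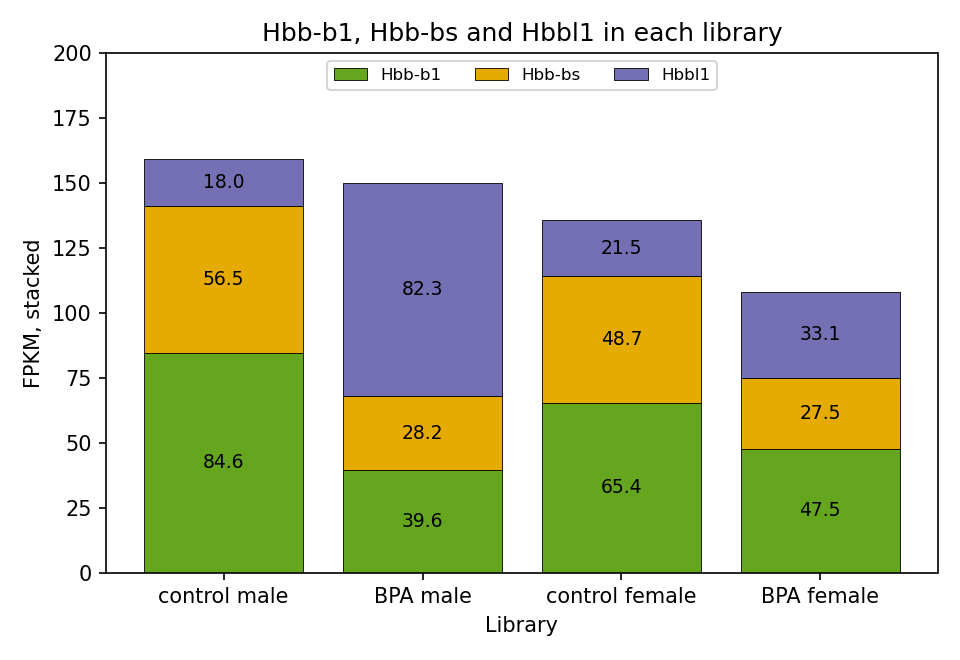
Stacked bars give the FPKM of Hbb-b1, Hbb-bs and Hbbl1 in each of the 4 libraries, with the value of each gene in its segment. The purple Hbbl1 segment was the largest of the 3 in the BPA male library (82.3 FPKM) and the smallest in both control libraries, while the height of the whole bar lay between 108.05 and 159.09 FPKM.

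Hbb, annotated as hemoglobin subunit beta-1, was the most abundant beta-type chain, at 473.14 FPKM in the control male, 450.29 in the BPA male, 448.15 in the control female and 364.59 in the BPA female library. It lay between rank 109 and rank 144 of the known genes in every library. The BPA female library was the lowest, with a log2 ratio of -0.30 (interval -0.39 to -0.21) against its control, and the male pair differed by less than counting error at -0.07 (interval -0.15 to 0.01). Hbb held between 74.8% and 77.1% of the summed FPKM of the beta type in the 4 libraries.

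Hba1, an adult alpha chain and the highest of all members, was at 638.29, 624.61, 608.44 and 515.89 FPKM. Hba2, the second alpha chain gene, was at 399.13, 405.93, 367.11 and 314.83 FPKM. For both genes the 2 male libraries were alike and the BPA female library was the lowest of the 4. The log2 ratios were -0.03 (interval -0.11 to 0.04) for Hba1 and 0.02 (interval -0.07 to 0.12) for Hba2 in males, and -0.24 (interval -0.32 to -0.16) and -0.22 (interval -0.32 to -0.12) in females. Their first 50 transcribed bases matched at 47, and the rest of the transcripts was not compared here, so a division of reads between these 2 genes was not tested and the split is uncertain. Hba1 held between 60.3% and 62.0% of the alpha-type FPKM in every library.

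Hba-a1, a scarce alpha-type gene, was at 4.38 FPKM in the control male, 5 in the BPA male, 5.74 in the control female and 2.10 in the BPA female library, on an estimated 15, 17, 19 and 7 fragments. Its log2 ratio was 0.17 (interval -0.90 to 1.30) in males and -1.26 (interval -2.94 to -0.14) in females. Of the embryonic beta-type genes, Hbg1 was listed at 0.01 FPKM in both control libraries and at 0.28 and 0.29 in the BPA male and BPA female libraries, about 1 fragment each. Hbe1, analyzed in the female libraries only, was at 0.29 FPKM in the control, about 1 fragment, and at 0.01 in the BPA library. A count of 0 allows up to 3 fragments, or 0.845 to 0.873 FPKM for these 2 genes, so no difference was detectable at this depth.

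**Figure D2:**
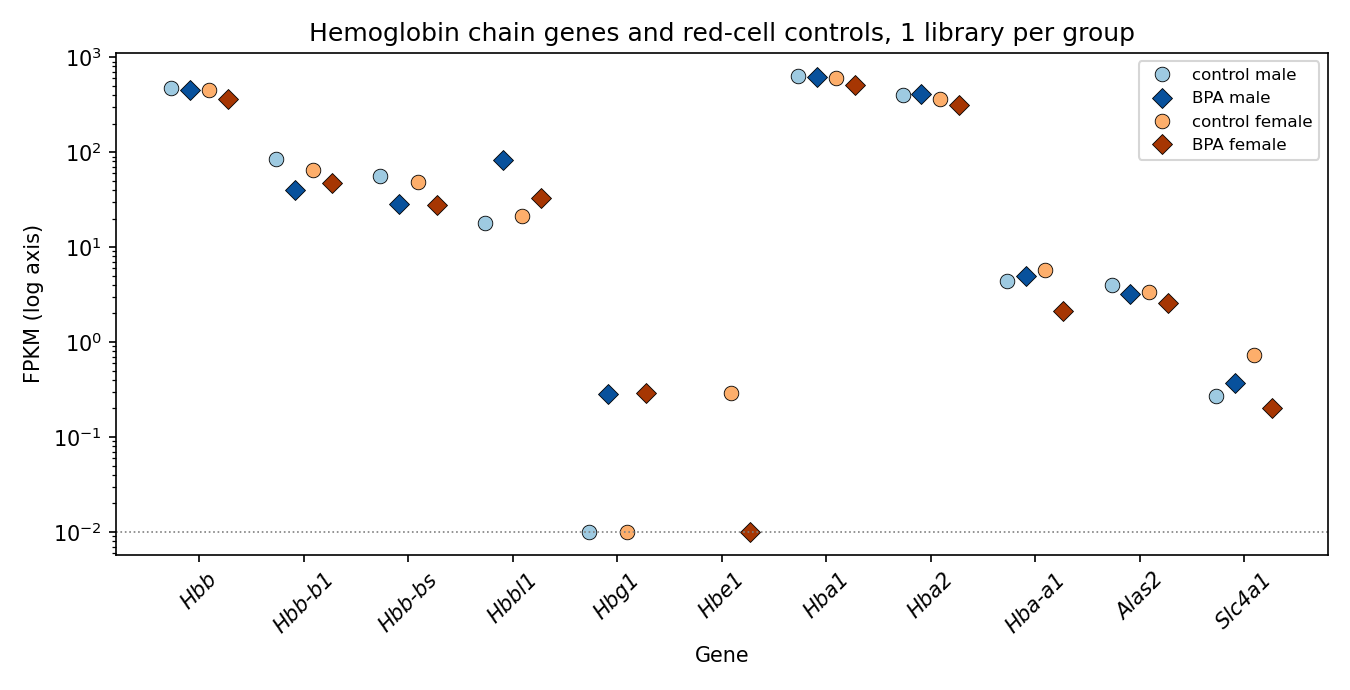
FPKM on a log axis is shown for the 9 hemoglobin chain genes and the 2 red-cell controls, with 1 point per library, circles for control and diamonds for BPA. Hba1, Hba2 and Hbb lie between 314.83 and 638.29 FPKM in all 4 libraries, Hbbl1 is the gene whose BPA male point stands apart, and the dotted line marks 0.01 FPKM, the value given in place of 0.

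Summed over the 9 chain genes, hemoglobin came to 1674.03 FPKM in the control male, 1636.18 in the BPA male, 1565.36 in the control female and 1305.75 in the BPA female library. The BPA female library was the lowest, with a difference of -16.6% from its control (log2 -0.26, interval -0.31 to -0.21), and the BPA male library differed from its control by -2.26% (log2 -0.03, interval -0.08 to 0.01). With FPKM divided by the median of each library, the male ratio turned to 0.02 and the female ratio became -0.16. The alpha type gave 1041.80, 1035.54, 981.29 and 832.82 FPKM and the beta type 632.23, 600.64, 584.07 and 472.93 FPKM. The alpha to beta ratio stayed between 1.65 and 1.76. Without Hbbl1 the difference of the beta type from its control was -15.6% in the BPA male and -21.8% in the BPA female library.

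The red-cell controls were scarce. Alas2, the erythroid enzyme that starts heme synthesis, was at 3.98, 3.22, 3.34 and 2.56 FPKM. Both BPA libraries lay below both controls, but the intervals of the log2 ratios included 0 in males (-0.27, interval -0.84 to 0.24) and in females (-0.33, interval -0.99 to 0.24). Slc4a1, the band 3 anion exchanger of the red-cell membrane, was at 0.27, 0.37, 0.73 and 0.20 FPKM, on an estimated 11, 15, 29 and 8 fragments. The control female library was the highest, and the female ratio was 3.65-fold lower with BPA (log2 -0.81 with the pseudocount, interval of the ratio without it -3.21 to -0.70).

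Of the 10 members listed in the male libraries, 2 were past the fold, Hbbl1 higher and Hbb-b1 lower, against 1.49% of 13496 known genes in either direction. Of 11 in the female libraries, 1 was past it, Hba-a1 lower, against 2.43% of 13545 known genes. These counts describe genes chosen on the same contrast. In males 5 of 10 members were lower with BPA and 5 higher, and in females 9 of 11 were lower and 2, Hbbl1 and Hbg1, were higher. The median log2 ratio over the members was 0.00 in males and -0.33 in females, beside -0.04 and -0.06 over all known genes. Over both sexes, 5 of 10 members (Hbbl1, Hbg1, Hbb-b1, Hbb-bs and Alas2) had control and BPA libraries that did not overlap, a share close to the 49.7% of all 13033 known genes listed in all 4 libraries. For Hbg1 the direction and the lack of overlap rest on about 1 fragment in each BPA library and 0 in each control.

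**Figure D3:**
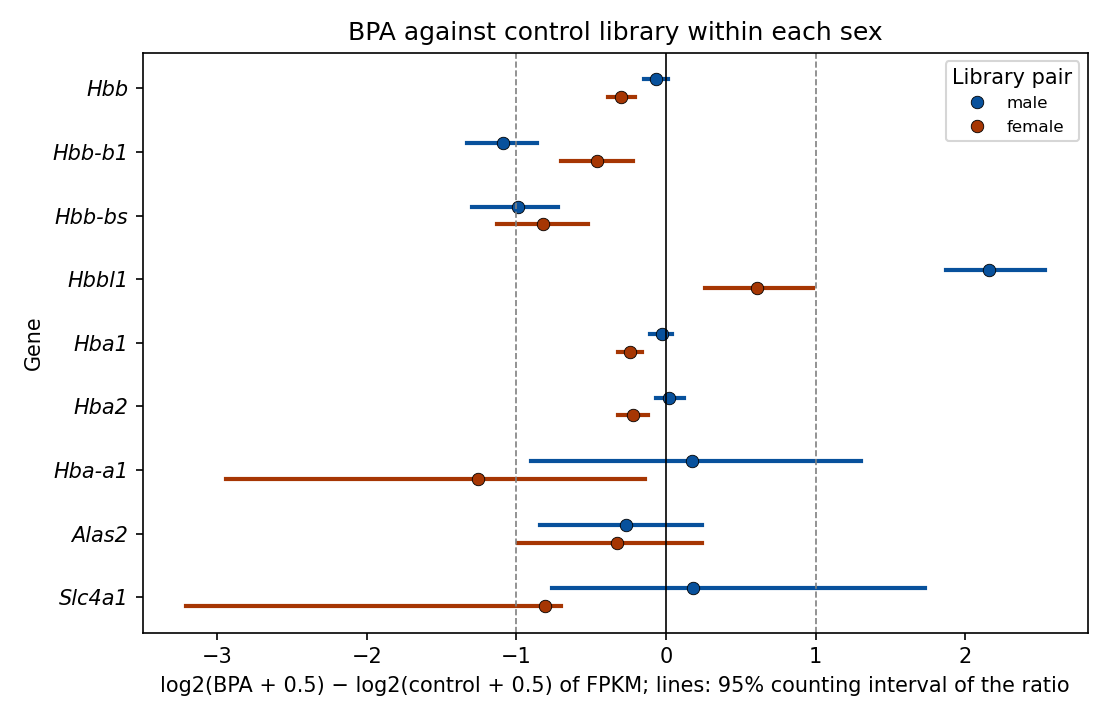
Log2 ratios of BPA to control FPKM (0.5 added to each) are drawn for 9 members, with male pairs in blue and female pairs in brown. Lines are 95% counting intervals of the ratio without the added 0.5, which is why the Slc4a1 point lies near the end of its line, and dashed lines mark an absolute log2 ratio of 1. Hbbl1 lies right of 0 in both pairs, and Hbb-b1 and Hbb-bs lie left of it in both.

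Sex was not used to choose the members, so it was tested with limma over all 4 libraries, females against males. None of the 8 members with a mean of at least 1 FPKM passed the threshold of 0.05 after adjustment, and 1 of them, Hba2, was under it before adjustment (log2 -0.24 ± 0.0877 (SE), limma adjusted p = 1). In the same fit 0.0152% of 13163 transcripts passed, and 2.39% were under the threshold before adjustment. Treatment was not a term, so differences between BPA and control libraries counted as spread, which weakens the test for Hbbl1, Hbb-b1 and Hbb-bs. With treatment as a second term no member passed, while 3 members and 945 of all transcripts were under the threshold before adjustment. Within a treatment, Hbbl1 was 0.25 higher on the log2 scale in the female than in the male control library, and female minus male came to -1.30 in the BPA libraries. For the summed chains the log2 difference, female minus male, was -0.10 between controls and -0.33 between BPA libraries.

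Other genes of the red-cell program were taken from fixed lists and tested for treatment in limma, with the 2 sexes as the libraries of a treatment, a fit in which 0.562% of 13163 transcripts passed the adjusted threshold of 0.05 and 17.3% had an unadjusted p under 0.05. Leaving out 1 library set 1 library against 2, the lone one being assumed to vary like the others, and this smaller fit called 0 to 6 of all transcripts and no gene of any list, so it says little about single genes. None of the 8 heme synthesis genes tested passed, and 1 had an unadjusted p under 0.05. None was past the fold either. The 2 most abundant were Alad, at 20.77, 17.79, 16.06 and 17.98 FPKM, and Urod, at 12.16, 11.34, 16.50 and 10.77 FPKM, enzymes of the middle steps of the pathway. None of 11 red-cell membrane and enzyme genes passed, and 3 had an unadjusted p under 0.05. Prdx2, a peroxiredoxin abundant in red cells, and Add2, a membrane skeleton protein that neurons also express, led that list with log2 differences of 0.04 and 0.13, and neither passed. Of 14 erythroid regulators, chaperones and receptors, only Zfpm1, Lmo2, Bcl11a and Tspan33 were abundant enough to be tested. None of these 4 passed, and 1 had an unadjusted p under 0.05. The fit did not cover Gata1, Klf1 or Ahsp, so it says little about the erythroid genes of the list. In that list Gata1 lay at or below 0.12 FPKM and Klf1 at or below 0.60 FPKM in all 4 libraries. Ahsp, which encodes the chaperone of free alpha chains, was at 0.87, 1.09, 1.12 and 0.22 FPKM, too scarce for the fit. It was lowest in the BPA female library, as were Hba1, Hba2 and Hba-a1. This was not particular to alpha chains, since Hbb, Hbb-bs, Alas2 and Slc4a1 were lowest there as well, while Hbb-b1 and Hbbl1 were not.

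Of 9 genes tested for iron uptake and hemoglobin clearance, 1 passed, and it was higher with BPA. This was Ftl1, the ferritin light chain, at 24.12 FPKM in the control male, 53.94 in the BPA male, 21.24 in the control female and 45.98 in the BPA female library (log2 1.12 ± 0.104 (SE), limma adjusted p = 0.0255), with log2 ratios of 1.14 in the male and 1.10 in the female pair. It did not pass without the filter on low values, where the fit called 0 of all transcripts. Ferritin genes have processed copies in mammalian genomes, so its level may share reads with them. Fth1, the ferritin heavy chain, was at 666.53, 693.17, 638.04 and 610.31 FPKM and its log2 difference was 0.00 (limma adjusted p = 0.984). Hmox1, which breaks down heme, was at 5.69, 2.69, 5.59 and 2.89 FPKM, lower in both BPA libraries, and missed the threshold (log2 -0.90 ± 0.148 (SE), limma adjusted p = 0.0726). With known genes only in the fit, 2 genes of the list passed, 1 higher and 1 lower with BPA. The non-erythroid globins Ngb and Cygb, at 1.62 to 1.97 and 5.05 to 7.37 FPKM, did not pass.

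All 10 meningeal genes were lower with BPA in both sexes, and their summed FPKM was 268 and 312 in the control male and control female libraries and 111 and 84.4 in the BPA male and BPA female libraries. The lists were chosen with earlier results of these data known, so the fit is no independent test of them. Of the 10 meningeal genes, 7 passed in limma, all lower with BPA, among them Igf2 (log2 -1.88 ± 0.129 (SE), adjusted p = 0.0253) and Col1a1 (log2 -1.51 ± 0.13 (SE), adjusted p = 0.0255). Without any 1 of the 4 libraries the number was 0, while 9 to 10 of the 10 still had an unadjusted p under 0.05. All 9 endothelial genes analyzed were lower with BPA in both sexes, with sums of 115 and 134 FPKM in the controls and 94.6 and 80.6 FPKM in the BPA male and BPA female libraries, and none passed while 6 had an unadjusted p under 0.05, against 17.3% of all transcripts. The 7 pericyte and vascular muscle genes summed to 51.9 and 56.0 FPKM in the control male and control female libraries and 41.2 and 41.0 FPKM in the BPA male and BPA female libraries. In males 4 of the 7 were lower with BPA and 3 higher, in females 6 were lower and 1 higher, and none passed, with 3 of the 6 tested at an unadjusted p under 0.05. With known genes only in the fit, 4 endothelial and 2 pericyte and vascular muscle genes passed, all lower with BPA. Beside these sums, the difference of summed hemoglobin from its control was -2.26% in males and -16.6% in females. Leukocyte and platelet markers were near the detection limit, with 5 of 11 analyzed and sums of 3.85, 4.61, 3.50 and 2.41 FPKM. S100a8, a neutrophil gene, was at 0.01, 2.19, 0.37 and 0.37 FPKM and so highest in the BPA male library, where Hbbl1 was also highest, while the other 3 genes listed in males were lower with BPA there. The study's methods state that the meninges were taken off at dissection, and the meningeal genes were still measured in all 4 libraries. The part of vessels, blood or meninges in the hemoglobin values was not tested.

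The neocortical neuron markers matched the labelled tissue, with 7 genes summing to 637, 716, 630 and 679 FPKM. Of these, 2 passed in limma, Neurod2 higher (log2 0.50 ± 0.0665 (SE), adjusted p = 0.0481) and Slc17a7, the vesicular glutamate transporter, lower with BPA (log2 -0.79 ± 0.0796 (SE), adjusted p = 0.0274). The log2 ratios in the male and the female pair were 0.43 and 0.57 for Neurod2 and -0.76 and -0.81 for Slc17a7.

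**Figure D4:**
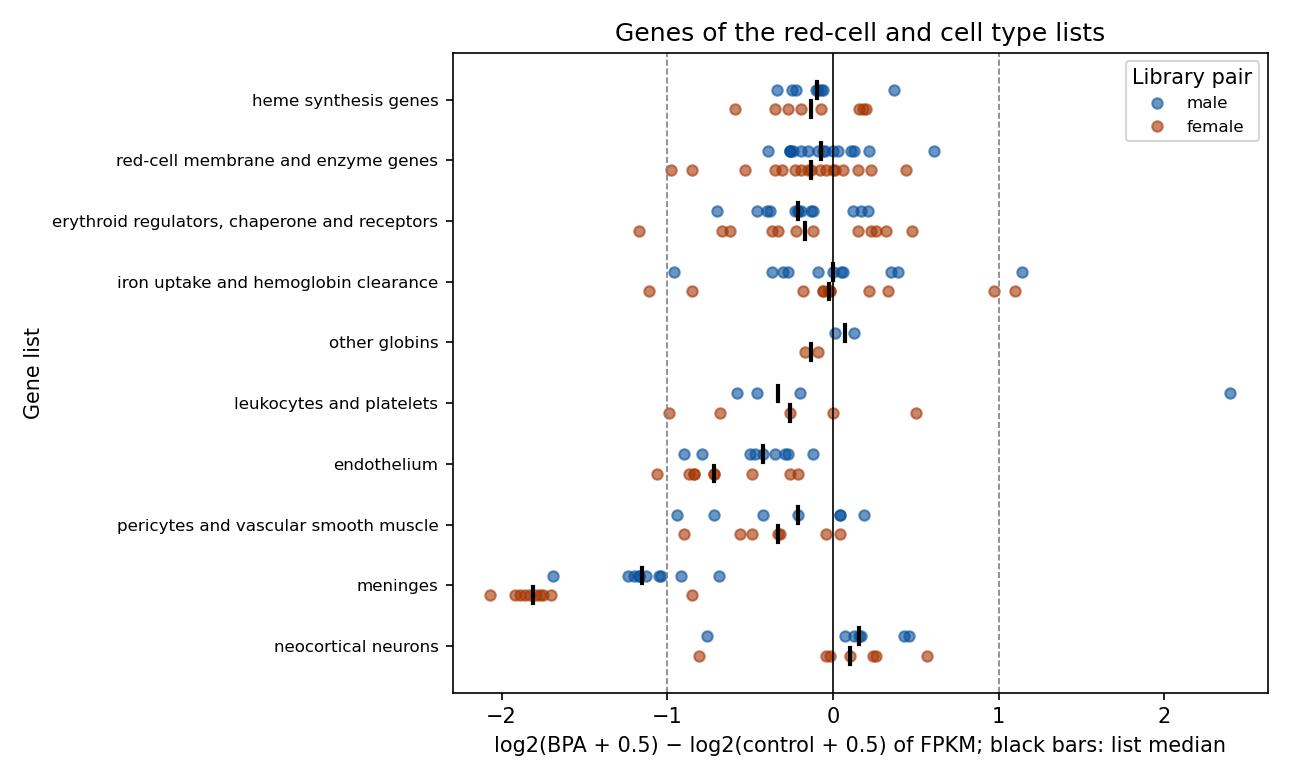
Each point is the log2 ratio of BPA to control FPKM (0.5 added to each) of 1 gene of the fixed lists, in blue for the male and in brown for the female pair, and black bars are list medians. The meningeal medians lie at -1.15 in males and -1.81 in females and the endothelial medians at -0.42 and -0.72, while the heme synthesis medians lie at -0.09 and -0.13.

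The genes whose pattern over the 4 libraries was most like that of Hbbl1 were Msantd1, Rbpms, Tssk6, Rpl13 and Ftl1. Likeness was the distance between log2(FPKM + 0.5) profiles centred on their means, over 10624 known genes with a mean of at least 1 FPKM, and these distances lay between 0.83 and 0.86. Rpl13, a ribosomal protein gene, was at 3.10, 10.54, 1.38 and 3.30 FPKM. For the summed hemoglobin chains the nearest were Fopnl, Akr1e2, RGD1310553, Rbm7 and Arl4d, at distances of 0.02 to 0.03. With 4 libraries such likeness is a description only.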

How the data were processed

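RNA-seq of the frontal cortex of newborn rats was analyzed in 4 libraries, 1 per sex and treatment, grouped by their labels. The study describes 3 pups per sex and treatment, taken from 6 independent litters, and does not state whether a library pooled them or which litters it holds. The authors selected mRNA with oligo(dT), mapped reads to Rnor_6.0 (rn6) with Bowtie 2 and estimated expression with RSEM (the submitters' processing notes also name HISAT), with versions not given in the sources used here. The deposited values are FPKM, scaled by the authors to transcript length and sequencing depth. No counts were used, so a count test was not run.

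Fragments were estimated as FPKM times length minus 60 bases times depth, with the depth of each library chosen so that scarce transcripts gave whole fragments (86.4% to 87.4% within 0.1 of a whole number, 20% by chance). The recovery and the limma fit were tested on simulated data. Intervals of ratios are exact conditional intervals and those of shares exact binomial (Clopper-Pearson), at 95%, for counting error only. PCR duplicates are not removed by them.

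Treatment and sex were each tested alone with limma 3.58.1 under R 4.3.3. The input was log2(FPKM + 0.5) of every transcript listed in all 4 libraries whose mean FPKM reached 1. The prior variance followed a trend, and p-values were adjusted over the whole table by Benjamini-Hochberg. The 2 libraries of a treatment differ in sex, and p-values measure the spread between these libraries only. Members and lists were chosen with earlier results of these data known. The text names every member, the 2 most abundant genes of most lists, those past the fold in both sexes, the 5 nearest genes by profile, and some genes (Ahsp, Hmox1, Gata1, Klf1, Neurod2, Slc17a7, Cd163) chosen after their values were seen. Symbols of 2 members came from RefSeq. Alignments used Biopython 1.88, with Python 3.11.15, pandas 2.3.3, numpy 2.4.6, scipy 1.17.1 and matplotlib 3.10.9. Alternatives changed the pseudocount, the filter, the scaling, the gene set, the terms and the libraries.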

Additional observations from a re-analysis of the deposited data

Results flagged for a closer look

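For 3 members the male and the female ratio had opposite signs, with 1 library pair per sex, and the difference was not tested. Hba2 had a log2 ratio of 0.02 in males and -0.22 in females. Hba-a1 had 0.17 in males and -1.26 in females, and Slc4a1 had 0.18 in males and -0.81 in females. The male counting intervals of all 3 included 0, so the male signs are uncertain. The male signs of Hba2 and of Hba1, which is not among the 3, also depended on the scaling. For 2 genes of the other lists the signs also differed and at least one ratio was past the fold, likewise without a test. Ahsp had 0.21 in males and -1.17 in females, and Cd163, the macrophage receptor that takes up hemoglobin bound to haptoglobin, had 0.35 in males and -1.11 in females. All 5 genes except Hba2 were at or below 5.74 FPKM in every library.

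A transcript without a Gene ID, assembled from the reads and annotated as hemoglobin subunit beta-2, lay outside the members. It was at 9.11 FPKM in the BPA male library, above the 5.53 and 7.01 FPKM of the control male and control female libraries, and at 1.40 FPKM in the BPA female library. Adding it to Hbb-b1, Hbb-bs and Hbbl1 changed the log2 ratio of their sum to -0.05 in males and -0.38 in females.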

How the results depend on the processing

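Hbbl1 kept its direction and its side of the fold limit under 2 other pseudocounts and 2 other scalings, with log2 ratios of 1.92 to 2.21 in males and 0.52 to 0.71 in females. With FPKM divided by the median of known genes, the log2 ratio of the summed chains was 0.02 in males and -0.16 in females. With a pseudocount of 0.01 FPKM, 4 members were past the fold in each sex, and 1732 known genes in males and 2040 in females. With a pseudocount of 5 FPKM, 0 members were past it in females, and 13 genes in males and 31 in females. A mean FPKM of at least 1 left 124 genes in males, and all transcripts gave 718 in males and 867 in females, against 201 and 329 in the report. The treatment fit called 74 transcripts, and 0 without the filter on low values (2628 at an unadjusted p under 0.05), 24 with a pseudocount of 0.01 FPKM, 477 among known genes only, and 0 to 6 without 1 library (1421 to 1899 at an unadjusted p under 0.05). Under these settings the meningeal list had 0, 3, 9 and 0 genes called. The sex fit called 2 transcripts, 1 with a pseudocount of 0.01 FPKM and 1 to 7 without 1 library, and none was a member under any setting run. The causes of these shifts were not tested. The labels carry no replicate numbers. With sex as a second term, which pairs the libraries by sex, the treatment fit called 86 transcripts (18 higher and 68 lower with BPA, against 14 and 60) and 8 meningeal genes. Fewer than 30 fragments stood behind each value of Hba-a1, Slc4a1, Hbg1 and Hbe1, which limits them.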
